A study of Alligator mississippiensis with 4 samples.

Results

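The genes of the mitochondrial respiratory chain were followed in the dermis of the overlapping scales of American alligator embryos. They were chosen by symbol, as every row of the expression table whose name begins with NDUF, UQCR, ATP5 or COX and a digit, together with CYC1 and the SDH subunits, which gave 71 rows of 10466. These fell into 36 rows for complex I, 3 for complex II, 5 for complex III, 18 for complex IV and 9 for complex V, and no symbol occurred more than once. NDUFA4, which carries a complex I name, was counted with complex IV, where the protein is known to reside. The rule uses symbols and no measured value.

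The 4 libraries came from dorsal and from ventral dermis, each taken at Es19 and at Es22, so that every region and stage had 1 library. Es19 is the placode stage and Es22 the bud stage of the scale, the embryos came from untreated fertilized eggs, and the dermis was freed from its epidermis before RNA was extracted. The deposited unit is CPM with TMM normalization, that is, reads scaled to a common library size after a correction for differences in RNA composition. The study's methods mention replicate samples, but the table holds 1 column for each region and stage, and nothing in the sources used here says whether a column pools several embryos.

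The respiratory chain passes electrons from NADH through complex I, or from succinate through complex II, to ubiquinone, and from there through complex III and cytochrome c to complex IV, which reduces oxygen. Complexes I, III and IV pump protons as they do so, and complex V, the ATP synthase, uses the gradient to make ATP. Each complex has a catalytic core around its flavin, iron-sulfur, haem or nucleotide sites and, apart from complex II, further accessory subunits, while assembly factors build the complexes without staying in them. The subunits encoded in mitochondrial DNA, which include the catalytic core of complex IV, are not analysed here, and neither are SDHA, NDUFS8, COX4I1, UQCRC2, ATP5C1 and some other nuclear subunits. The 71 rows were accordingly sorted into 14 catalytic core subunits, 46 accessory subunits, 10 assembly factors and COX7A2L, a factor that joins complexes III and IV into supercomplexes in mammals. For complex V the F1 subunits, central stalk included, were counted as core and those of the membrane part and the peripheral stalk as accessory.

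The table held 10722075 to 13220855 reads a library, and 1 read was worth 0.0679 to 0.103 CPM. COL1A1 and COL1A2, which encode type I collagen, took between 11% and 33.4% of the reads, and the TMM factors ran from 0.787 to 1.27. The 10236 rows whose mean reached 1 CPM are called all rows from here on, and under other scalings this filter was applied anew. Without the TMM factors it kept 10248 rows. Their median log2 difference was -0.19 for dorsal over ventral dermis at both stages and -0.44 for Es22 over Es19 in both regions. With the collagen reads alone left out of the total it kept 10439 rows. The medians were then -0.05 and -0.14 by region at Es19 and Es22, and -0.22 and -0.10 by stage in dorsal and ventral dermis. On the deposited scale these medians lay between -0.01 and 0.01, and the differences given for groups of genes are to be read against them. Of the dermal fibroblast markers 8 of 11 had a row, and their summed level ran from 88280 to 435017 CPM, most of it type I collagen. Markers of other cells were present too, with sums of 36 to 905 CPM for 6 of 14 epidermal markers, 196 to 1691 CPM for 9 of 16 skeletal muscle markers, 389 to 3189 CPM for 6 of 12 red blood cell markers and 205 to 579 CPM for 7 of 10 endothelial markers. Each of these 5 sums was higher in both Es22 libraries than in both Es19 libraries. The sum of 4 of 6 macrophage markers kept this order (Es22 dorsal 37.9, Es22 ventral 34.5, Es19 ventral 13.2, Es19 dorsal 8.75 CPM). That of 3 of 7 melanocyte markers did not (Es22 dorsal 467, Es19 dorsal 176, Es22 ventral 133, Es19 ventral 97.7 CPM). The epidermal sum was highest in Es22 dorsal dermis, whereas the muscle sum was highest in Es22 ventral dermis. In such bulk samples a change in the number of cells of a type and a change in the RNA of each cell cannot be told apart.

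All 71 respiratory chain genes passed the filter of 1 CPM, and 67 had a mean of at least 5 CPM. Their summed level was 8628 CPM for dorsal and 8792 CPM for ventral dermis at the placode stage, and 8843 and 8193 CPM at the bud stage. On the deposited scale the sum thus differed little between libraries, with the highest and the lowest both at Es22. This rests on the TMM factors, which were 1.10 and 1.27 for dorsal and ventral dermis at Es19 and 0.787 and 0.904 at Es22. Without them 7 of 71 genes in dorsal and 2 in ventral dermis were higher at Es22 than at Es19, while the median of all rows was -0.44 in both regions. For a single gene the highest of the 4 libraries was a median of 1.24 times the lowest, against 1.51 times over all rows. Since rare transcripts vary more by counting alone, the 52 members with a mean of at least 50 CPM were also set beside the 3007 rows at that level, and the medians were then 1.22 and 1.33 times. Expression of the chain was therefore more even over the 4 libraries than that of all rows above this floor, which include the members. No test was made of this description, and it is not particular to the chain. Among the gene lists described below, the median was 1.21 times for mitochondrial ribosomal proteins and 1.18 times for tricarboxylic acid cycle and pyruvate dehydrogenase genes. It was 1.29 to 1.43 times for the other mitochondrial lists, glycolysis and the cytosolic ribosomal proteins.

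The highest value fell in Es22 dorsal dermis for 35 of the 71 genes (31.2% of all rows), in Es19 ventral for 20 (25.2%), in Es19 dorsal for 10 (24.3%) and in Es22 ventral for 6 (19.3%). The lowest value fell in Es22 ventral dermis for 28 genes (18.1%) and in Es19 dorsal for 21 (24.3%). On the deposited scale Es22 dorsal dermis held more of the highest and Es22 ventral dermis more of the lowest values than over all rows. The count for Es19 ventral dermis was near its share of all rows. Without the TMM factors 7 of 71 genes were higher at Es22 in dorsal and 2 in ventral dermis, while the median of all rows was -0.44 in both regions. The counts of highest values at Es22 thus rest on those factors. Highest and lowest libraries were not counted again without them, for members or for all rows.

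By complex, the summed CPM at Es19 in dorsal and ventral and at Es22 in dorsal and ventral dermis was 2942, 3117, 3163 and 2848 for complex I. For complex II the sums were 394, 374, 403 and 362 CPM, and for complex III they were 738, 747, 695 and 672 CPM. Complex IV summed to 1765, 1854, 2144 and 1817 CPM. On the deposited scale complexes I, II and IV had their highest sum in Es22 dorsal dermis, while complex III was lower in both Es22 libraries than in both at Es19. Complex V had 2789, 2700, 2438 and 2494 CPM, also lower at Es22, and most of that sum came from ATP5B and ATP5A1W. CPM is not corrected for transcript length, so sums of different complexes are not compared with each other.

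**Figure D1:**
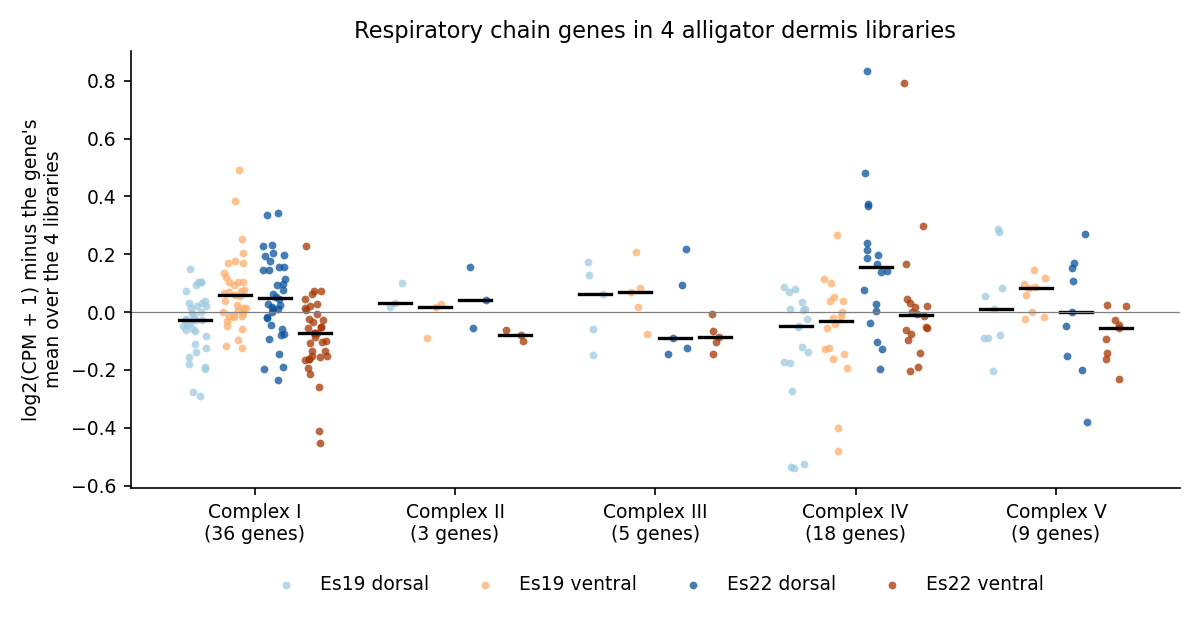
Each point is a gene of the complex on the x axis, and the y axis gives its log2(CPM + 1) in a library minus its mean over the 4 libraries, with colours for the libraries and black bars for medians. Complex I stands above its mean in Es19 ventral and Es22 dorsal dermis and below it in the other pair, and complex IV stands highest in Es22 dorsal dermis; these offsets are on the TMM scale, and without TMM all libraries shift as given in the text.

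The first question was whether the chain differed between dorsal and ventral dermis. In limma, with region and stage as terms and 1 residual degree of freedom, so that the departure of the stages from each other stands in for replicate error, 0 of 71 genes passed an adjusted p of 0.05 by region, where 0.234% of all rows passed. The count at an unadjusted p under 0.05 was also 0, against 7.55% of all rows. edgeR's quasi-likelihood test on recovered reads called 0 of 71, against 0.44%. The smallest adjusted p by region in limma was 0.90, for NDUFA4, at a log2 difference of 0.25 (SE 0.16) in favour of dorsal dermis.

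A region difference that turns over between the stages cannot be called by that fit, since it enters the residual. At Es19, 21 of 71 genes were higher in dorsal dermis, where 49.8% of all rows were, and at Es22, 53 of 71 were, against 49.4%. Relative to the median of all rows, the median of the members was lower in dorsal dermis by a log2 difference of -0.08 at Es19 and higher by 0.15 at Es22. The signs of these relative values were kept under each of the 4 other scalings, from -0.09 to -0.08 at Es19 and from 0.13 to 0.15 at Es22. Each scaling multiplies a whole library by a single factor and so moves members and all rows nearly alike. The check could hardly have changed these signs, and here and below kept signs are no support for a difference. In absolute terms, however, 1 and 27 of 71 genes were higher in dorsal dermis without the TMM factors, where the median of all rows was -0.19 at both stages. The middle of the distribution, from the lower to the upper quartile, ran from -0.15 to 0.01 at Es19 and from 0.00 to 0.27 at Es22. Most members thus lay below 0 at Es19 and above it at Es22, with others on the opposite side.

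Taken gene by gene, 39 of 71 were higher in ventral at Es19 but in dorsal dermis at Es22, a pattern held by 24.9% of all rows. The reverse was shown by 7 genes, against 2588 of all 10236 rows. Dorsal dermis was higher at both stages for 14 genes (2506 of all 10236 rows) and lower at both for 11 (2593). The pair of libraries compared at Es19 and the pair compared at Es22 have none in common. A difference of at least 2-fold on the log2(CPM + 1) scale between the regions was seen for 0 of 71 genes at Es19, where 5.41% of all rows had one, and for 0 of 71 at Es22, where 4.63% did.

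The second question was whether the chain differed between the placode and the bud stage. By stage, 0 of 71 genes passed in limma, where 3.13% of all rows did, and 3 had an unadjusted p under 0.05, which is fewer than the 20.6% of all rows. edgeR called 0 of 71 against 5.03%. All 3 genes are subunit isoforms of complex IV and are described with that complex. At least 2-fold apart were 1 of 71 genes in dorsal dermis, against 10.6% of all rows, and 1 of 71 in ventral dermis, against 7.48%.

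At Es22, 45 of 71 genes were higher than at Es19 in dorsal dermis, where 49.4% of all rows were, and 23 of 71 in ventral dermis, where 51.6% were. Relative to all rows the medians were 0.09 in dorsal and -0.10 in ventral dermis, with ranges over the scalings of 0.04 to 0.09 and -0.14 to -0.10. In absolute terms 7 and 2 of 71 genes were higher at Es22 without the TMM factors, where the median of all rows was -0.44 in both regions. Es22 was higher in both regions for 19 genes (34.3% of all rows) and lower in both for 22 (33.3%), the latter near the share of all rows. A further 26 genes were higher at Es22 in dorsal and lower in ventral dermis (15.1%), and 4 were the reverse (17.3%). These stage values use the same 4 libraries as the region values, so they are a second view of the same measurements, and the Es22 dorsal library enters both the region difference at Es22 and the stage difference in dorsal dermis. Each other library likewise enters a region difference and a stage difference.

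The members were also divided by kind of subunit. Of the 46 accessory subunits, 8 were higher in dorsal dermis at Es19 and 37 at Es22, and their medians relative to all rows were -0.11 and 0.21, with the same signs under every scaling run. Of the 14 catalytic core subunits, 9 were higher in dorsal dermis at Es19 and 9 at Es22, with relative medians of 0.06 and 0.03 and no change of sign with scaling. Across stages, 36 of 46 accessory subunits were higher at Es22 in dorsal dermis, with a relative median of 0.20, whereas 4 of 14 core subunits were, with a relative median of -0.15, and these signs too were the same under every scaling run. In ventral dermis the relative medians were -0.10 for accessory and -0.12 for core subunits. The 10 assembly factors had relative medians of -0.06 and 0.08 by region at Es19 and Es22, and of -0.06 and -0.12 by stage in dorsal and ventral dermis. The kinds were unevenly spread over the complexes, since complex IV gave 12 accessory subunits and no core ones, and complex II core subunits only. Within complex I, 2 of 6 core and 3 of 25 accessory subunits were higher in dorsal dermis at Es19, with medians of -0.09 and -0.11. Within complex V these counts were 3 of 3 and 0 of 6. No test was made of the difference between kinds of subunit.

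**Figure D2:**
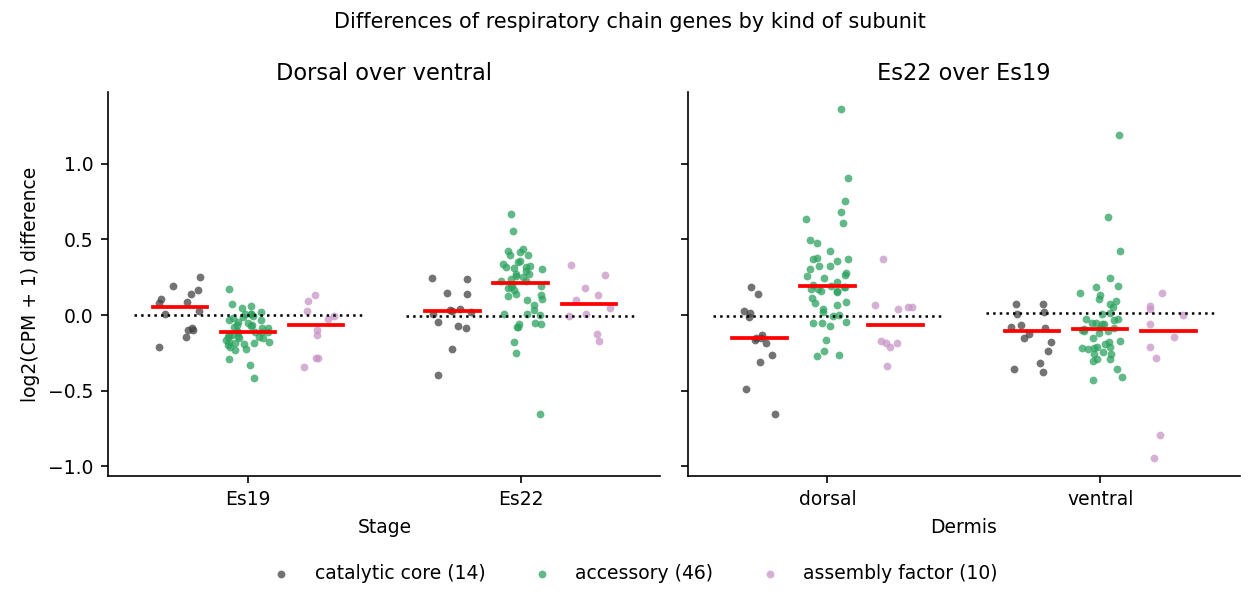
The left panel gives log2(CPM + 1) of dorsal minus ventral dermis at each stage and the right panel Es22 minus Es19 in each region, with a point for each gene, red bars for medians and dotted lines for the median of all rows. Accessory subunits (green) lie mostly below the dotted line at Es19 and above it at Es22 in the left panel. In the right panel they lie mostly above it for dorsal dermis. Without TMM the points and red bars shift nearly together with the dotted lines, which then lie at -0.19 at both stages and -0.44 in both regions.

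Complex I oxidizes NADH. Of its 36 genes, 6 were higher in dorsal dermis at Es19 and 27 at Es22, while 24 were higher at Es22 in dorsal and 9 in ventral dermis. The relative medians by region were -0.10 and 0.16, and by stage 0.08 and -0.15, with the signs kept under every scaling run. Within the complex the 6 core subunits had 2 genes higher in dorsal dermis at Es19 and 3 at Es22, and the 25 accessory subunits had 3 and 20. The accessory families NDUFA, without NDUFA4, and NDUFB held 10 genes each, of which 8 and 8 were higher in dorsal dermis at Es22, and both NDUFC genes were.

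NDUFC1, a small membrane subunit, stood at 52.7 CPM (dorsal) and 64.7 CPM (ventral) at Es19, followed by 82.4 and 62.4 CPM in the same regions at Es22, the order used for values from here on. Es22 dorsal dermis was the highest library, 1.56-fold (95% counting interval 1.41 to 1.73) above Es19 dorsal dermis. Values, ratios and orders of single genes here and below are on the deposited scale and rest on the TMM factors. Without these factors each Es22 value falls against those at Es19, and such orders can turn. NDUFB1, another membrane arm subunit, had 65.2, 72.6, 100.2 and 82.7 CPM, so that both Es22 libraries lay above both at Es19. Its limma stage difference was 0.40 on the log2 scale (SE 0.17, adjusted p = 0.26). NDUFB11, also of the membrane arm, had 71.6, 72.1, 82.4 and 66.3 CPM, with both Es19 libraries between the pair at Es22.

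NDUFA12 and NDUFS4, accessory subunits of the arm that holds the redox sites, were chosen after their values were seen as examples of the reversal of region. NDUFA12 had 38.0, 48.1, 51.3 and 38.8 CPM and was 1.27-fold (1.13 to 1.42) higher in ventral dermis at Es19 and 1.32-fold (1.16 to 1.51) higher in dorsal dermis at Es22. NDUFS4 had 84.4, 99.4, 98.5 and 73.6 CPM, with ratios of 1.18 (1.09 to 1.28) and 1.34 (1.22 to 1.48) in those directions. In both genes the intervals of the 2 ratios exclude equality, but these intervals cover counting error only, and with 1 library a group the spread between embryos is unknown. Reads without molecular identifiers are not independent molecules, so even the counting error may be larger.

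Other complex I subunits had another form. NDUFV3, an accessory subunit of the flavin-bearing module, had 16.9, 19.3, 19.2 and 23.0 CPM, with ventral above dorsal dermis at both stages, though both counting intervals include equality. NDUFA6, an accessory subunit of the LYR family, had 71.9, 77.7, 60.8 and 60.6 CPM, lower in both Es22 libraries than in both at Es19.

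Among the 5 assembly factors of complex I, 4 were lower in dorsal dermis at Es19, and 4 were higher there at Es22. NDUFAF1 and NDUFAF5 were chosen after their values were seen, as the assembly factors with the widest range. NDUFAF1, an early assembly factor, had 28.9, 35.3, 25.3 and 19.9 CPM and was 1.77-fold (1.5 to 2.1) lower at Es22 in ventral dermis. NDUFAF5, an arginine hydroxylase that acts on a core subunit, had 2.09, 2.92, 1.44 and 1.03 CPM and was 2.83-fold (1.4 to 6.31) lower there by the ratio of CPM. On the log2(CPM + 1) scale, which understates differences of rare transcripts, the latter is under 2-fold.

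Complex II, succinate dehydrogenase, is shared with the tricarboxylic acid cycle and has no subunit encoded in mitochondrial DNA. SDHB, its iron-sulfur subunit, had 92.3, 92.1, 93.1 and 84.3 CPM. SDHC and SDHD anchor the enzyme in the membrane, and SDHC had 109, 102, 97.4 and 97.0 CPM. SDHD had 193, 179, 213 and 181 CPM. All 3 subunits were higher in dorsal dermis at both stages on the deposited scale, but by no more than 1.18-fold (1.11 to 1.26), for SDHD at Es22, and without TMM 2 of 3 stayed above the median of all rows at each stage. On the deposited scale the highest library was a median of 1.12 times the lowest, so that complex II was nearly level there.

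Complex III moves electrons from ubiquinol to cytochrome c. CYC1, its cytochrome c1 subunit, had 142, 119, 118 and 125 CPM, and stood highest in Es19 dorsal dermis, 1.19-fold (1.12 to 1.27) above ventral dermis. UQCRFS1, the Rieske iron-sulfur protein, had 146, 161, 128 and 126 CPM, and UQCRC1, a large subunit with no redox site that was counted as accessory, had 230, 223, 190 and 201 CPM. Both were lower in the Es22 libraries than in the Es19 libraries, and neither was called by limma. The small subunits went another way. UQCRB, which binds near ubiquinone, had 77.2, 86.7, 99.8 and 80.7 CPM, and UQCRH, the hinge protein, had 143, 157, 159 and 139 CPM. Both of these were higher in ventral at Es19 but in dorsal dermis at Es22. For the 5 genes together the relative medians by stage were -0.18 in dorsal and -0.16 in ventral dermis, of the same sign under every scaling run.

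Complex IV, cytochrome c oxidase, had 13 of 18 genes higher at Es22 in dorsal dermis and 12 in ventral dermis on the deposited scale. The relative medians by region were -0.04 at Es19 and 0.16 at Es22, with the signs kept under every scaling run. By stage, the relative median in dorsal dermis was 0.23 and stayed between 0.18 and 0.23 over the scalings, while that in ventral dermis was 0.02 and changed sign without TMM, at -0.00. It is also the complex with isoforms that differ between tissues, and those isoforms held the 3 largest positive stage differences of the chain in limma. The 12 accessory subunits had 4 genes higher in dorsal dermis at Es19 and 10 at Es22.

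COX7A1, the heart and skeletal muscle isoform of subunit 7A in mammals, had 5.50, 5.70, 15.7 and 9.49 CPM. Both Es22 libraries lay above both Es19 libraries, and within Es22 dorsal dermis was the higher. In dorsal dermis Es22 was 2.85-fold (2.14 to 3.82) above Es19, and in ventral dermis 1.67-fold (1.23 to 2.27). The limma stage difference was 1.0 (SE 0.28, adjusted p = 0.12), and edgeR gave an adjusted p of 0.0998, so that neither test called it. COX7A2, the isoform of most other tissues, had 248, 275, 282 and 225 CPM and followed the ventral-then-dorsal form, so the order of libraries differed between the isoforms.

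COX6A2, the muscle isoform of subunit 6A in mammals, had 0.464, 0.611, 1.35 and 2.68 CPM, from 6, 9, 14 and 26 reads. It was highest in Es22 ventral dermis, 4.39-fold (1.99 to 10.7) above Es19 ventral dermis, and the wide interval comes from the few reads. Its limma stage difference was 0.94 (SE 0.27, adjusted p = 0.14; edgeR 0.088). COX6A1, the widespread isoform, had 156, 181, 200 and 170 CPM, highest in Es22 dorsal dermis and lowest in Es19 dorsal dermis.

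COX4I2, an isoform of subunit 4 that in mammals is abundant in lung and is tied to oxygen sensing, had 60.2, 80.7, 114 and 108 CPM. Es22 was 1.89-fold (1.73 to 2.07) above Es19 in dorsal and 1.34-fold (1.24 to 1.46) in ventral dermis, and at Es19 the ventral library was 1.34-fold (1.22 to 1.47) above the dorsal. These ratios rest on the TMM factors. Without them the order by stage in ventral dermis turns, with 1189 of 11581288 reads at Es19 and 1051 of 10722075 at Es22. The limma stage difference was 0.66 (SE 0.18, adjusted p = 0.11; edgeR 0.088). Its counterpart COX4I1 is not analysed here. Over the alternatives run, the adjusted p by stage of COX4I2 lay between 0.088 and 0.486, of COX7A1 between 0.098 and 0.492 and of COX6A2 between 0.088 and 0.429. The stage coefficient of the fit, which is not given for each region apart, was above 0 each time.

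Of the skeletal muscle markers, 8 of 9 were higher at Es22 in dorsal and 9 of 9 in ventral dermis. CKM, the muscle creatine kinase, had 10.3, 11.5, 43.2 and 147 CPM, and MYL1, a fast myosin light chain, had 7.20, 17.8, 52.4 and 183 CPM. The other markers with a row, MYLPF, TNNI2, TNNC2, ACTA1, ACTC1, NEB and MYOG, ran from 1.32 to 82.6 CPM in Es19 dorsal and from 15.4 to 609 CPM in Es22 ventral dermis. At Es22 each of the 9 markers was higher in ventral dermis, and their sum in the 4 libraries was 196, 261, 507 and 1691 CPM. COX6A2, like that sum, was highest in Es22 ventral and next in Es22 dorsal dermis, whereas COX7A1 was highest in Es22 dorsal dermis. At Es19 the 6 and 9 reads of COX6A2 do not rank the regions, with a dorsal over ventral ratio of 0.76 (0.22 to 2.39). SLC25A4, the muscle and heart isoform of the mitochondrial ADP and ATP carrier, chosen after its values were seen, had 1.08, 0.95, 2.98 and 5.67 CPM, while SLC25A5, the form of dividing cells, had 492, 521, 479 and 377 CPM. Endothelial marker sums were 249, 205, 579 and 429 CPM, highest in Es22 dorsal dermis, but at Es19 4 of the 7 markers were lower in dorsal dermis, and the sum there was carried by TEK and SOX18. At Es22 COX4I2 was 1.05-fold (0.965 to 1.14) higher in dorsal dermis, within counting error. The part of muscle or vessel cells in the isoform values was not tested.

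Among the remaining subunits of complex IV, NDUFA4 had 202, 192, 285 and 210 CPM, with Es22 dorsal dermis 1.41-fold (1.34 to 1.49) above Es19 dorsal and 1.35-fold (1.28 to 1.43) above Es22 ventral dermis. COX8A, a small subunit chosen after its values were seen, had 82.4, 91.3, 140 and 94.7 CPM, with the same library standing alone at the top on the deposited scale. COX6B1, which faces the intermembrane space, had 229, 228, 298 and 260 CPM, higher in both Es22 libraries on that scale. COX5A, on the matrix side, was the exception, with 168, 193, 140 and 145 CPM and thus lower values at Es22. COX7A2L had 24.8, 24.7, 24.0 and 25.3 CPM, and the counting interval included equality in each of the 4 contrasts.

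**Figure D3:**
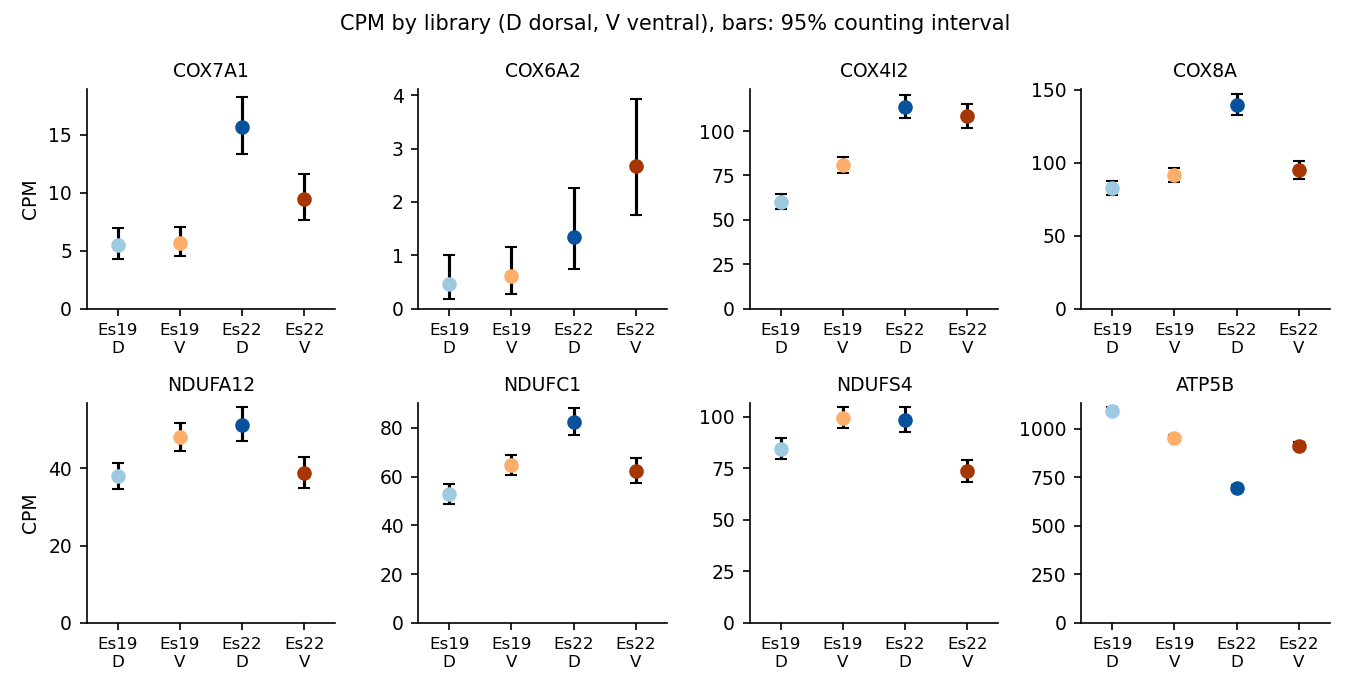
CPM (y axis, from 0) in each library (x axis, D dorsal and V ventral) for 8 genes, with bars for the 95% counting interval of 1 library, not for replicate error. COX7A1, COX8A and NDUFC1 are highest in Es22 dorsal dermis, COX4I2 is higher in both Es22 libraries, COX6A2 is highest in Es22 ventral dermis at 2.68 CPM, NDUFA12 and NDUFS4 are high in Es19 ventral and Es22 dorsal dermis, and ATP5B is lowest in Es22 dorsal dermis at 693 CPM. These orders are on the TMM scale, and without it each Es22 value falls against those at Es19.

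In complex V, 3 of 9 genes were higher in dorsal dermis at Es19 and 7 at Es22 on the deposited scale, with relative medians of -0.06 and 0.14 whose signs were kept under every scaling run. The catalytic head, F1, holds the nucleotide sites. ATP5B, its catalytic beta subunit, had 1092, 955, 693 and 914 CPM. It was lowest in Es22 dorsal dermis, the library where 29 of 46 accessory subunits were highest on the deposited scale. Its value there was 1.58-fold (1.53 to 1.62) lower than in Es19 dorsal dermis and 1.32-fold (1.28 to 1.36) lower than in Es22 ventral dermis. The limma stage difference of ATP5B was -0.36 (SE 0.21, adjusted p = 0.40). ATP5A1W, taken by its symbol as the alpha subunit, was chosen after its values were seen and had 780, 766, 711 and 690 CPM, a range of 1.13-fold. ATP5D, the delta subunit of the central stalk, had 3.10, 2.71, 1.92 and 1.86 CPM, and its counting intervals include equality in each of the 4 contrasts.

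The 6 subunits of the membrane part and the peripheral stalk were all lower in dorsal dermis at Es19, and 5 of them higher at Es22, with relative medians of -0.09 and 0.19. By stage their relative median was 0.22 in dorsal dermis, with the sign kept under every scaling run. The log2(CPM + 1) stage differences of the 3 F1 subunits in dorsal dermis were -0.65 for ATP5B, -0.13 for ATP5A1W and -0.49 for the scarce ATP5D, so the abundant pair lay far apart. ATP5J2, the f subunit, had 109, 124, 151 and 121 CPM, and ATP5L, the g subunit, had 177, 185, 212 and 181 CPM. In both genes Es22 dorsal dermis was the highest and Es19 dorsal dermis the lowest. ATP5G1, which encodes the ring subunit c, had 1.63, 1.83, 1.35 and 1.65 CPM, too few reads to tell its libraries apart, and its paralogs ATP5G2 and ATP5G3 are not analysed here.

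Other mitochondrial genes were measured in the same libraries. Of 22 rows for assembly factors outside the naming rule, 8 were higher in dorsal dermis at Es19 and 13 at Es22, and of 17 rows for electron and nucleotide carriers 6 and 13 were. The 59 mitochondrial ribosomal proteins had 18 and 47 genes higher in dorsal dermis, with relative medians of -0.05 and 0.09. By region they were thus displaced in the same directions as the chain by smaller amounts. By stage they differed from it, with 24 of 59 higher at Es22 in dorsal and 4 in ventral dermis. Their medians by stage on the deposited scale were -0.05 and -0.21, where those of the chain were 0.08 and -0.09. For 12 genes of the tricarboxylic acid cycle and pyruvate dehydrogenase the relative medians were 0.04 and 0.05, like those of the core subunits, and CS, the citrate synthase, had 243, 214, 159 and 206 CPM with its lowest value in Es22 dorsal dermis, as ATP5B had. The signs of these relative medians by region were the same under every scaling run.

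Regulators of mitochondrial biogenesis had no common form by region, whereas by stage most were lower at Es22. Their 16 rows had relative medians of -0.03 and -0.07 by region at Es19 and Es22. By stage the relative medians were -0.19 and -0.19 in dorsal and ventral dermis. On the deposited scale 5 and 4 of the 16 were higher at Es22 in those regions, against 49.4% and 51.6% of all rows. PPRC1, a coactivator of nuclear respiratory genes, had 72.1, 58.6, 27.5 and 45.3 CPM, and POLRMT, the mitochondrial RNA polymerase, had 53.2, 45.3, 27 and 43.6 CPM, both lowest in Es22 dorsal dermis. GABPA, a subunit of a factor that binds promoters of nuclear respiratory genes, was highest there instead, with 119.7, 120.1, 144 and 119 CPM. PPARGC1A, a regulator of mitochondrial content, was scarce at 1.70, 2.92, 1.83 and 0.722 CPM. TFAM, which packages mitochondrial DNA, had 4.80, 5.70, 4.42 and 4.23 CPM. These 5 genes and CS were chosen after their values were seen. Glycolysis, with rows for 10 of 21 listed genes, had relative medians of 0.06 and -0.18 by region at Es19 and Es22. By stage they were -0.09 and 0.19 in dorsal and ventral dermis, so that each of the 4 was opposite in sign to the chain. Of the 10 genes, 6 and 3 were higher in dorsal dermis at Es19 and Es22. By stage 5 were higher at Es22 in dorsal and 7 in ventral dermis. No row of the other mitochondrial lists or of glycolysis was at least 2-fold apart on the log2(CPM + 1) scale in the same direction in both contrasts of a comparison, although by the ratio of CPM scarce ones such as SLC25A4 were.

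The cytosolic ribosomal proteins had the pattern of the accessory subunits at Es22 by a larger amount. Of 65 rows, 12 were higher in dorsal dermis at Es19 and 64 at Es22, and 63 were higher at Es22 in dorsal dermis, with relative medians of -0.05, 0.43 and 0.48 that kept their signs under every scaling run. On the deposited scale their summed level was 81720, 84548, 116066 and 85217 CPM, with Es22 dorsal dermis standing alone. The part of that library as a whole in the values of the accessory subunits was not tested, and with 1 library each, library and group cannot be told apart. The differences at Es19 and those by stage in ventral dermis do not use it, but both use the Es19 ventral library. The epidermal and melanocyte marker sums were also highest in that library, with KRT14, a basal keratin, at 2.48, 2.51, 306 and 64.2 CPM. The part of these cells was not tested either.

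**Figure D4:**
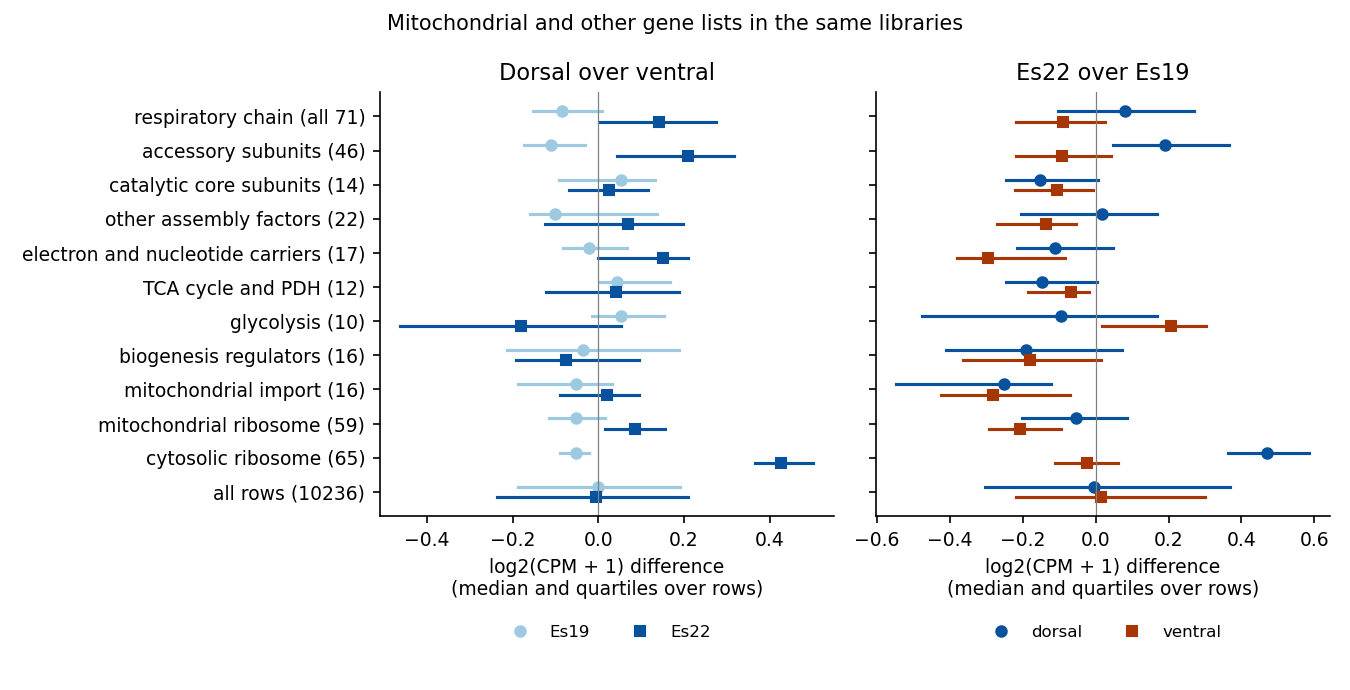
Points are medians and lines run from the lower to the upper quartile of log2(CPM + 1) differences over the rows of each list, for dorsal over ventral dermis (left) and Es22 over Es19 (right), with the number of rows in brackets. In the left panel at Es22 and in the right panel for dorsal dermis, the accessory subunits and, by more, the cytosolic ribosomal proteins lie above all rows. The catalytic core lies near all rows on the left and below them on the right. Without TMM every list shifts nearly together with the all-rows points, which then lie at -0.19 on the left and -0.44 on the right.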

How the data were processed

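The deposited table gives 1 column for each of 4 alligator dermis libraries (TruSeq, single reads). The authors deposited a normalized signal, CPM with TMM factors, so column sums differ from each other; the study's methods name STAR, the submitters' processing notes list TopHat2 (2.1.0), Partek (3), HTSeq and edgeR, and the genome build and annotation are not given in the sources used here. Whole reads were recovered from the step between low values of a library, and 99.8% to 99.95% of values came out whole within 0.05.

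Rows were kept where the mean reached 1 CPM. limma (3.58.1, trended prior) was fitted to log2(CPM + 1) of 10236 rows, with terms for region and stage, with Benjamini-Hochberg adjustment at 0.05, and edgeR (4.0.16) was run on the reads as an alternative; other tools were scipy (1.17.1), pandas (2.3.3), numpy (2.4.6), matplotlib (3.10.9), Python (3.11.15) and R (4.3.3). The limma fit by region was tested on simulated data, while the stage term and the edgeR fit were not. With 1 library per region and stage, p-values rest on 1 residual degree of freedom plus the prior, and single ratios carry exact binomial 95% counting intervals on recovered reads. Relative medians are the median of a list minus that of all rows. A scaling of the libraries moves both nearly alike, so signs kept under the scalings could hardly have turned out otherwise. Alternatives were the pseudocount, the filter, 4 scalings, the fit's terms, the tool, the fold and leaving out each library. The fits without a library also left out the term not under test, so they differ from the main fit in both respects. Members, lists and tests were chosen with earlier results of these data known. Named genes were those at least 2-fold apart or called, the isoforms, the SDH subunits, the extremes of each complex by stage and by region, and muscle markers; others are said to be chosen after their values were seen. An item that the rule names is not reported here. The table has no columns of the authors' own comparisons.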

Additional observations from a re-analysis of the deposited data

Results flagged for a closer look

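Medians of the log2 difference took opposite signs in the 2 stages or the 2 regions, with 1 library on each side, and the difference was not tested. For all members, dorsal over ventral dermis was -0.084 at Es19 and 0.14 at Es22, and Es22 over Es19 was 0.080 in dorsal and -0.089 in ventral dermis. For complex I these were -0.10 and 0.15 by region, and 0.073 and -0.13 by stage. Complex II differed in sign by stage, with 0.012 in dorsal and -0.079 in ventral dermis. By region, complex III had -0.13 at Es19 and 0.021 at Es22, complex IV -0.037 and 0.15, and complex V -0.065 and 0.13. Of all rows, 24.9% were higher in ventral at Es19 but in dorsal dermis at Es22.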

How the results depend on the processing

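No call in limma by region or stage was made at any pseudocount, filter, term or tool run (lowest and highest count 0). The same held under the scalings, except by stage without the TMM factors. There 26 of 71 members were called lower at Es22, a larger share than the 2777 of 10248 rows called lower, and that scaling shifts all rows. The medians then were -0.28 and -0.057 by region at Es19 and Es22, and -0.40 and -0.58 by stage in dorsal and ventral dermis; with collagen reads left out of the total they were -0.0058 by region at Es22 and -0.14 and -0.21 by stage. The medians of members relative to all rows kept their sign under each scaling, an alternative chosen after seeing the data. That check could hardly have changed the signs, since a scaling moves members and all rows nearly alike. The number of members at least 2-fold apart by stage rests on low genes and on the fold. In dorsal dermis it was 2 higher with a pseudocount of 0.1, 0 with a pseudocount of 5, 0 higher and 1 lower without TMM, 6 higher and 1 lower at 1.5-fold and 0 at 4-fold. In ventral dermis it was 1 higher and 1 lower with a pseudocount of 0.1 or with collagen left out, 0 with a pseudocount of 5 or a mean of at least 5 CPM, 0 higher and 2 lower without TMM, 2 higher and 2 lower at 1.5-fold and 0 at 4-fold. By region at Es22, 1 was higher and 1 lower at 1.5-fold. The share of all rows was not counted at these other settings, so these counts have no background to be read against. Of the values of single named genes, 769 stayed on the same side of the threshold and 9 passed it, each without TMM. No paired analysis was possible because there is 1 library per region and stage and the labels give no replicate numbers. Depth limits COX6A2, ATP5D, ATP5G1 and NDUFAF5 most.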
